A study of Mus musculus with 8 samples.

Results

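The genes described here encode the machinery that presents peptides on MHC class I molecules at the cell surface. They are B2m, H2-K1, H2-D1, Tap1, Tap2, Tapbp, Psmb8 and Psmb9. A probe was taken as theirs when its transcript accession belonged to one of these genes in RefSeq, which gave 9 of 55667 probes, and 8 of the 20970 genes that could be named. All 8 genes passed the filter on dim probes, and all 8 were well above background on all 8 arrays. Mouse pluripotent cells of the C57BL/6J strain were profiled on one-colour arrays, 1 array per sample. There were 4 arrays of OSKH induced pluripotent stem cells (iPSCs), 3 of OSK iPSCs, named by the series as its control group, and 1 of the embryonic stem cell line B6J-23 ESC. OSK is read here as the reprogramming factors Oct4, Sox2 and Klf4 and the H as the oocyte linker histone H1foo, since the labels leave the letters unexplained. The labels do not give the starting cell type, the vector, or whether arrays of a group are separate clones or cultures. The errors given here are therefore those among the arrays of a group, which may not be independent clones. The genes were proposed as a group with these measurements in view, so their values are given as a description and without p-values.

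Class I molecules display fragments of the cell's own proteins to cytotoxic T cells. Proteasomes cut the proteins, the TAP transporter carries the peptides into the endoplasmic reticulum, and a loading complex fits them onto a heavy chain paired with beta-2 microglobulin. Interferons raise most genes of this route, and pluripotent stem cells are known for low class I levels at their surface.

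All of these genes except B2m lie in the H2 region of chromosome 17, and B2m lies on chromosome 2 (RefSeq, GRCm38.p6). Psmb9, Tap1, Psmb8 and Tap2 follow each other within 34.3 kb, with Tapbp and H2-K1 on one side and H2-D1 1.05 Mb away on the other. Stretches of DNA before listed transcription starts are shown because levels of several members varied together across arrays. The RefSeq promoter table holds an entry for 7 of the 8 genes, all but Tap2. The first 3 stretches come from H2-K1, H2-D1 and B2m, each upstream of the first start that the promoter table lists for the gene. Capitals mark matches to the NF-kB consensus and to the core of interferon regulatory factor sites, AANNGAAA, on either strand.

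H2-K1, chr17:34000399-34000478, minus strand: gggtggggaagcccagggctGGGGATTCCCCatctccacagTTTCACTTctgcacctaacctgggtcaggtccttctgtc
H2-D1, chr17:35262903-35262982, plus strand: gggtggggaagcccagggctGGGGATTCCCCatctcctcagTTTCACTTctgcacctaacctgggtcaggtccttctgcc
B2m, chr2:122147530-122147609, plus strand: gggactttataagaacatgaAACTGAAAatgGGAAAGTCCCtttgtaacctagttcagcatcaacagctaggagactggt

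The H2-K1 and H2-D1 stretches were identical at 78 of 80 bases, and the capitals of their first site hold a pair of matches shifted by 1 base. In B2m the order of the sites was turned round. Over the 250 bases before the start, the NF-kB consensus was found in 3 of the 7 members and in 7.01% of 27025 promoters, and the AANNGAAA core in the same 3 members and in 21.6% of promoters. The table lists 2 starts for H2-K1, and its gene model reaches beyond both to position 34000619 of chromosome 17, so the H2-K1 stretch lies within the annotated gene.

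Psmb9 and Tap1 are transcribed in opposite directions from the 225 bases between them, shown whole on the strand of Tap1 with the CCAAT box in capitals. Psmb8, which lies beyond Tap1, was the only member with a match to TTCNNNGAA, the pattern of interferon gamma-activated sites, shown here in capitals.

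Psmb9-Tap1, chr17:34187331-34187555: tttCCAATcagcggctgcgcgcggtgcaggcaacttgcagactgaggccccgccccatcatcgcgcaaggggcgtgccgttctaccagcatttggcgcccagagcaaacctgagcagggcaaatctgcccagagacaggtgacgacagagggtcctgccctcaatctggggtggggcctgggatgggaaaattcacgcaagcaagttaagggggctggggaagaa
Psmb8, chr17:34198068-34198136: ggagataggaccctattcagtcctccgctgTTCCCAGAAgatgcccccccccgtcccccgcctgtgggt

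TTCNNNGAA was found in 7.18% of promoters and CCAAT, on either strand, in 34.5%, including 6 of the 7 members. The box between Psmb9 and Tap1 is a single site that counts for both genes, and it lies at the Psmb9 end. A match is a string of letters in this window and was not tested as a binding site.

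All 8 arrays lay on 1 slide. Row 1 held ESC and OSKH 1 to 3, and row 2 held OSKH 4 and OSK 1 to 3, so group and row overlap in large part. A level is the log2 signal of a probe after subtracting the 75th percentile of its array. A difference is one of log2 levels, and its standard error (SE) comes from limma. A level cannot be set against that of another gene, because probes differ in brightness. In RNA from a whole culture, fewer cells with a transcript and less transcript per cell cannot be told apart. Pou5f1, which encodes Oct4, lay between 6.09 and 6.41 on all 8 arrays. OSKH 4 stood apart by markers of mesendoderm. Foxa2, a transcription factor of that lineage, had a level of 4.03 there, 0.80 on ESC, and -4.40 to -1.24 on the remaining iPSC arrays.

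Every member had a higher mean in OSKH than in OSK, by 0.14 to 1.75, with the larger gaps in Psmb8 and Tap2 and the smaller ones in Tap1, H2-K1 and Psmb9. The median of the 8 differences was 0.41, beside -0.01 over all features, of which 46.3% were higher in OSKH. Group means hide an uneven pattern: OSKH 2, 3 and 4 were high in most members, while OSKH 1 was near or below the OSK arrays in all but B2m. Limma called 0 of 22685 features between OSKH and OSK at an adjusted p under 0.05 (0%), and 1470 had an unadjusted p under 0.05. Only 1 member, B2m, had every OSKH array above every OSK array, where 3.15% of all features did. At least 3 OSKH arrays lay above the highest OSK array in 5 of 8 members and in 13.7% of features. These comparisons were in view when the genes were chosen.

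**Figure D1:**
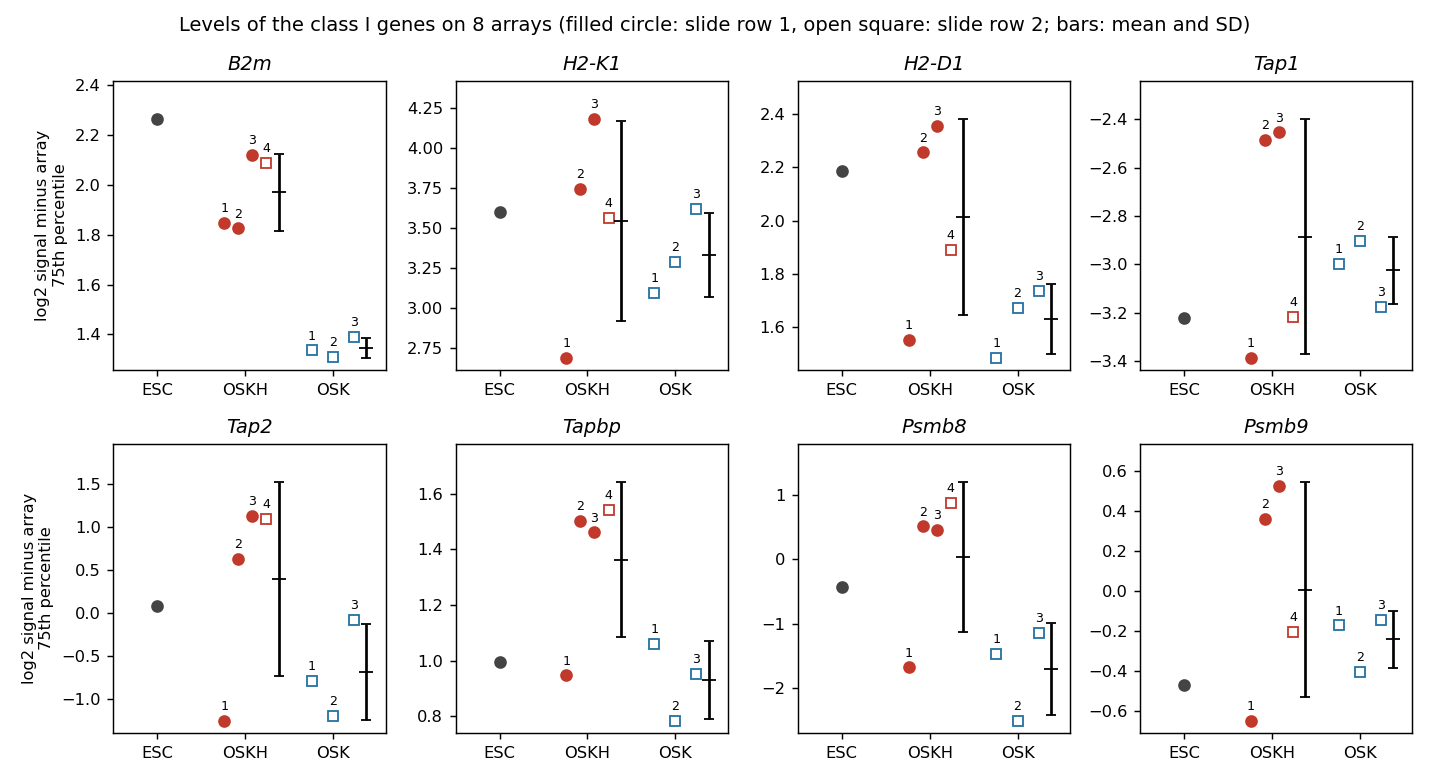
Level of each gene (log2 signal minus the 75th percentile of the array) on the ESC, OSKH and OSK arrays, with array numbers beside the points and slide rows by symbol; bars give the mean and SD of 4 OSKH and 3 OSK arrays. B2m separates the groups, while OSKH 1 lies near or below the OSK arrays in the other 7 genes.

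B2m encodes beta-2 microglobulin, the light chain that every class I heavy chain needs to reach the surface. Its level was 1.85, 1.83, 2.12 and 2.09 on OSKH 1 to 4, 1.34, 1.31 and 1.39 on OSK 1 to 3, and 2.26 on ESC. The 3 OSK arrays lay within 0.08 of each other and below all other arrays, and ESC was the highest of the 8. The means were 1.97 ± 0.16 (SD, n = 4) and 1.35 ± 0.04 (SD, n = 3), a difference of 0.63 (SE 0.10) or 1.54-fold. Unlike in the other members, OSKH 1 was not the lowest OSKH array.

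H2-K1 encodes a classical heavy chain, the part of the molecule that holds the peptide. It was at 2.69, 3.74, 4.18 and 3.56 on OSKH 1 to 4, at 3.09, 3.29 and 3.62 on OSK 1 to 3, and at 3.60 on ESC. OSKH 1 was the lowest of all 8 arrays, OSKH 2 and 3 the highest, and OSKH 4 lay within the range of OSK. The difference of 0.21 (SE 0.34) was within the spread of either group, and it was 0.50 (SE 0.21) without OSKH 1 and -0.0007 without OSKH 3. Leaving out OSK 1 gave 0.092 and leaving out OSK 3 gave 0.35. A second H2-K1 probe, dimmer by signal, put OSKH 1 to 4 at 1.04, 2.05, 2.44 and 1.90 and OSK at 1.41, 1.61 and 1.73, with a difference of 0.27 and the same order of arrays within each group.

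H2-D1, the other classical heavy chain measured, was at 1.55, 2.26, 2.36 and 1.89 on OSKH 1 to 4. It was at 1.48, 1.67 and 1.74 on OSK 1 to 3 and at 2.19 on ESC. OSKH 1 fell among the OSK arrays, and OSKH 2 to 4 lay above them. The difference was 0.38 (SE 0.20), or 1.30-fold, and 0.54 (SE 0.15) without OSKH 1. Class I heavy chains are close copies of each other, so the probes of H2-K1 and H2-D1 may share signal.

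Tap1 and Tap2 encode both subunits of the peptide transporter, and they differed in their pattern. Tap2 was at -1.25, 0.63, 1.13 and 1.09 on OSKH 1 to 4, at -0.78, -1.19 and -0.08 on OSK 1 to 3, and at 0.08 on ESC. OSKH 2 to 4 lay above every other array and OSKH 1 below every other array. The difference of 1.08 (SE 0.62), or 2.12-fold, was smaller than the 1.12 SD among the OSKH arrays, and it was 1.63 (SE 0.30), or 3.10-fold, without OSKH 1. Over all alternatives it ran from 0.83 without OSK 2 to 1.77 with slide row as a block.

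Tap1 was at -3.39, -2.48, -2.45 and -3.22 on OSKH 1 to 4, at -3.00, -2.90 and -3.18 on OSK 1 to 3, and at -3.22 on ESC. Only OSKH 2 and 3 lay above OSK, and OSKH 4 was level with ESC. The difference was 0.14 (SE 0.26), 0.31 (SE 0.22) without OSKH 1, -0.0048 without OSKH 3 and 0.06 with normexp background correction. It was 0.0053 without OSKH 2, 0.25 without OSKH 4 and 0.064 without OSK 3. Tapbp encodes tapasin, which holds the empty heavy chain at the transporter. It was at 0.95, 1.50, 1.46 and 1.54 on OSKH 1 to 4, at 1.06, 0.78 and 0.95 on OSK 1 to 3, and at 0.99 on ESC. OSKH 2 to 4 lay within 0.08 of each other and above the other 5 arrays, among them OSKH 1. The difference was 0.43 (SE 0.17), or 1.35-fold, and 0.57 (SE 0.10) without OSKH 1.

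Psmb8 and Psmb9 encode catalytic subunits of the immunoproteasome, the form whose cuts favour peptides that fit class I molecules. Psmb8 had the widest gap between groups of all members. It was at -1.68, 0.51, 0.45 and 0.88 on OSKH 1 to 4, at -1.48, -2.51 and -1.14 on OSK 1 to 3, and at -0.43 on ESC. OSKH 1 was among the OSK arrays and the other OSKH arrays were above all others, ESC included. The difference was 1.75 (SE 0.66), or 3.36-fold, and 2.32 (SE 0.36), or 5.00-fold, without OSKH 1. Over all alternatives it ran from 1.34 with normexp to 2.59 with slide row as a block. Psmb9 was at -0.65, 0.36, 0.53 and -0.20 on OSKH 1 to 4, at -0.17, -0.40 and -0.15 on OSK 1 to 3, and at -0.47 on ESC. Only OSKH 2 and 3 stood above OSK, and OSKH 1 was the lowest array. The difference was 0.25 (SE 0.29). It was 0.47 (SE 0.20) without OSKH 1, 0.13 without OSKH 2 and 0.077 without OSKH 3.

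OSKH 1 was below the other OSKH arrays in 7 of the 8 members, where 33.6% of all features had OSKH 1 lowest of the group. The exception was B2m. Relative to the mean of OSKH 2 to 4, OSKH 1 was lower by a median of -0.77 over the members, from -2.29 for Psmb8 to -0.16 for B2m, beside 0.0007 over all features. Against the OSK mean, OSKH 1 was higher in 3 of 8 members, with a median of -0.22. Without OSKH 1 the median OSKH minus OSK difference was 0.55. All 12 markers of undifferentiated cells passed the filter, and their mean, centred per gene, was highest on OSKH 1, at 0.44, against 0.34 on ESC and -0.35 to 0.06 on the remaining arrays. Klf4, a reprogramming factor, was at 3.69 on OSKH 1 and 3.52 on ESC, with 1.69 to 2.65 on the other iPSC arrays. The 12 markers did not all follow this order. Lin28a was at 5.715 on OSKH 1, the lowest of the OSKH arrays, and Tdgf1 was at 5.34, below ESC at 5.49. The part of these markers in the low class I levels was not tested.

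**Figure D2:**
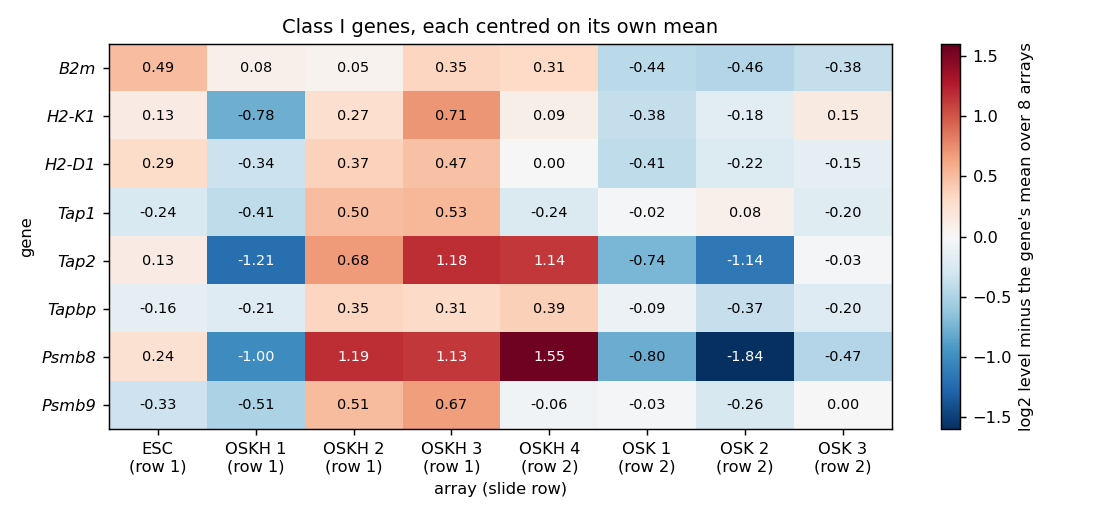
Log2 level of each gene on each array minus that gene's mean over the 8 arrays, with the slide row under each array name; red is higher and blue lower. Averaged over the genes the values are 0.49, 0.67 and 0.40 on OSKH 2, 3 and 4, against -0.55 on OSKH 1 and -0.55 to -0.16 on OSK.

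In 0 of 8 members were the 4 arrays of a row all above those of the other row, a share near that of all features, of which 2.95% were so split. The part of slide row in the differences cannot be told apart from that of the groups. Row 2 holds a single OSKH array. Within it, 5 members were higher on OSKH 4 than on all 3 OSK arrays, namely B2m, H2-D1, Tap2, Tapbp and Psmb8. This held for 24.6% of all features. OSKH 4 lay above the OSK mean by 2.59 for Psmb8, 1.77 for Tap2, 0.74 for B2m and 0.61 for Tapbp, and by 0.26 or less for H2-D1, H2-K1 and Psmb9. Tap1 was at -0.19. A limma fit with slide row as a block rests on the same contrast of OSKH 4 with OSK, and none of its 47 called features (0.207%) was a member. That contrast cannot be told apart from what else sets OSKH 4 off. Without OSKH 4 the differences were 0.59 for B2m, 0.20 for H2-K1, 0.42 for H2-D1, 0.25 for Tap1, 0.85 for Tap2, 0.37 for Tapbp, 1.47 for Psmb8 and 0.32 for Psmb9.

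**Figure D3:**
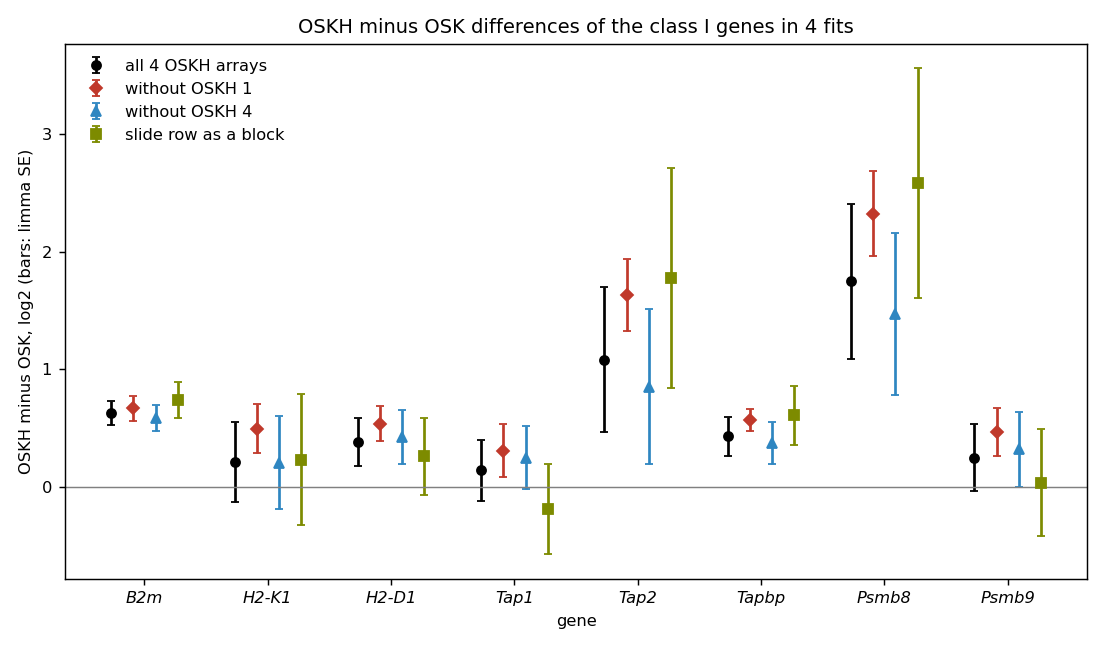
OSKH minus OSK difference of each gene in log2 units, with limma standard errors, from 4 fits: all arrays, without OSKH 1, without OSKH 4, and with slide row as a block. Tap2 and Psmb8 have the wider differences in every fit, and Tap1 lies at -0.19 with slide row as a block.

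Some members had like patterns, although all values come from the same 8 arrays and the correlations are descriptions. Tap2 and Psmb8, which are neighbours, had a Pearson correlation of 0.957 over the 8 arrays. Tapbp, which lies further off, had 0.937 with Psmb8 and 0.882 with Tap2. Tap1 and Psmb9, which share the stretch between their starts shown above, had 0.899, and H2-K1 and H2-D1, with nearly identical stretches, had 0.856, close to the 0.85 of H2-K1 and Tap2. Neighbouring genes did not always pair, since Tap1 and Psmb8 had 0.38. B2m, on its own chromosome, had 0.726 with Psmb8 and 0.035 with Tap1. With the heavy chain genes, which hold matches to the same motifs, it had 0.71 for H2-D1 and 0.406 for H2-K1. The part of shared stretches, or of signal shared between probes, in these correlations was not tested.

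The single ESC array lay among the iPSC arrays in every member but B2m, where it was above them all. Counted from the highest of the 8 arrays, it had rank 1 for B2m, 3 for H2-D1, 4 for H2-K1, Tap2 and Psmb8, 5 for Tapbp, and 7 for Tap1 and Psmb9. OSKH differed from ESC by -0.29 (SE 0.15) for B2m, -0.17 (SE 0.30) for H2-D1 and 0.47 (SE 0.97) for Psmb8. OSK differed from ESC by -0.92 (SE 0.16) for B2m, -0.56 (SE 0.31) for H2-D1 and -1.28 (SE 1.00) for Psmb8, and was higher in 2 of 8 members, by 0.20 (SE 0.39) for Tap1 and 0.23 (SE 0.43) for Psmb9. The median over the members was 0.33 for OSKH minus ESC and -0.41 for OSK minus ESC, beside -0.05 over all features in both. The first of these was 0.50 without OSKH 1, 0.13 without OSKH 3, 0.14 without OSKH 4 and 0.17 with normexp. Both comparisons share the 1 ESC array, whose spread is taken to be that of the iPSC groups. Limma called 0% of features in either at an adjusted p under 0.05, with 990 and 1365 at an unadjusted p under 0.05.

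The remaining genes of the route were read from lists chosen by function, and limma called 0 genes of any list between OSKH and OSK. Of 15 other class I heavy chain and class I-like genes that passed the filter, 11 had a higher mean in OSKH, with a median difference of 0.35, and 11 were lowest on OSKH 1 among the OSKH arrays. Over all features, 46.3% had a higher mean in OSKH and 33.6% were lowest on OSKH 1. Heavy chain probes of this list may share signal with those of H2-K1 and H2-D1, which was not tested. H2-Q1 was at 0.75 (SE 0.35) and Hfe, a class I-like regulator of iron uptake, at 0.74 (SE 0.32), each well above background on 6 of 8 arrays and on 1 of 3 OSK arrays. With normexp both were 0.23. On the other side, H2-T24 was at -0.35 (SE 0.08), or -0.18 with normexp, and H2-Q4 at -0.21 (SE 0.14). The smallest limma adjusted p of this list was 0.732.

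The inducible proteasome list showed the same direction in 4 of 4 genes. Psmb10, the remaining catalytic subunit of the immunoproteasome, differed by 0.22 (SE 0.21). Psme1, a subunit of the PA28 activator, differed by 0.31 (SE 0.14), and Psme2b, a close copy of its partner subunit whose probe may see both, by 0.40 (SE 0.20). Ubd, a ubiquitin-like protein, was at 3.63 on OSKH 1 and -0.56 to 1.77 on the other iPSC arrays, and its difference of 1.28 (SE 0.82) was 0.61 without OSKH 1. By contrast, the 21 genes of the constitutive proteasome had a median of -0.03 and lay between -0.15 and 0.19. The constitutive catalytic subunits Psmb5, Psmb6 and Psmb7 differed by 0.01 (SE 0.08), 0.02 (SE 0.07) and -0.04 (SE 0.07). At the ends of that list stood Psme4 at 0.19 (SE 0.12) and Psma4 at 0.12 (SE 0.08), and the assembly factors Psmg2 at -0.15 (SE 0.13) and Pomp at -0.10 (SE 0.08). The smallest limma adjusted p was 0.769 in the inducible list and 0.848 in the constitutive list.

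Loading and trimming genes were near 0, with a median of 0.01 over 14 genes and 8 of them higher. Tapbpl, a relative of tapasin, differed by 0.22 (SE 0.14). Erap1, which trims peptides in the endoplasmic reticulum, was well above background on 3 of 4 OSKH and on 0 of 3 OSK arrays. Its mean was 1.39-fold higher in OSKH when OSK levels were set no lower than the lowest measured signal of the array. OSKH 1 entered at -4.95, and normexp gave a difference of 0.25, so this fold is not a firm minimum. The lowest differences were -0.12 (SE 0.10) for Npepps and -0.10 (SE 0.17) for Lnpep, both aminopeptidases. Of 27 regulators, 17 had a higher mean in OSKH, with a median of 0.04. Nlrc5, the main activator of class I promoters, differed by 0.50 (SE 0.26) and was well above background on 7 of 8 arrays. It was at -3.25, -2.91, -2.79 and -2.74 on OSKH 1 to 4, at -4.03, -3.22 and -3.01 on OSK 1 to 3, and at -3.25 on ESC, and normexp gave a difference of 0.20. Rfxap, a subunit of the factor that binds those promoters, differed by 0.73 (SE 0.31), or 0.28 with normexp. The lowest regulators were Nfya at -0.25 (SE 0.13) and the kinase Jak1 at -0.22 (SE 0.13).

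Irf1, an interferon-induced transcription factor, was at 3.43, 4.16, 4.20 and 3.91 on OSKH 1 to 4 and at 3.81, 3.36 and 3.90 on OSK 1 to 3. OSKH 1 was near the bottom of these values, as for most members, and the difference was 0.24 (SE 0.22). Usp18, an interferon target that curbs the signal, had another order, at 0.80, 1.87, 2.36 and -1.37 on OSKH 1 to 4 and -0.49 to 0.12 on OSK. It was lowest of all on OSKH 4, where Psmb8 was highest. The smallest limma adjusted p of the regulators was 0.767.

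**Figure D4:**
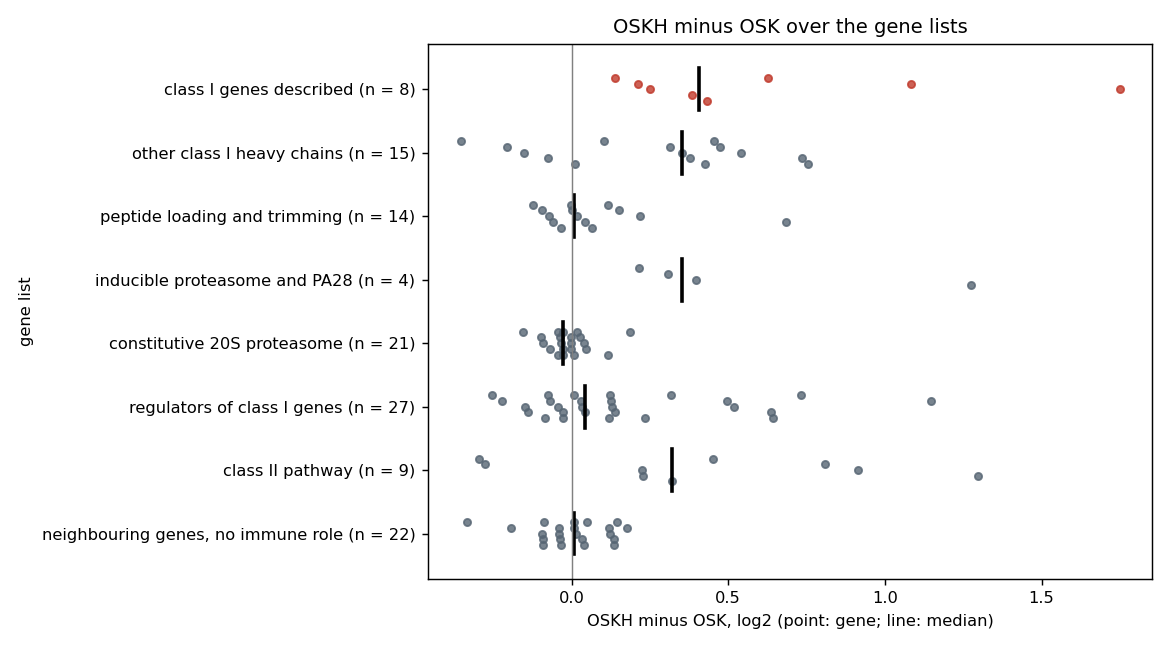
OSKH minus OSK difference in log2 units of each gene (points) in each gene list, with the list median as a line and the number of genes in brackets. The class I genes described have a median of 0.41, other class I heavy chains 0.35, and constitutive proteasome genes and neighbouring genes lie near 0; the points of Erap1, at 0.68, and Col11a2 rest on OSK arrays at background.

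Of 22 genes without an immune role that lie near the members on chromosomes 17 and 2, 12 were higher and 10 lower in OSKH, with a median of 0.01. They ranged from -0.33 (SE 0.11) for B3galt4 and -0.19 (SE 0.29) for Kifc1 to 0.18 (SE 0.13) for Spg11, and Col11a2 was not above background on any OSK array. The smallest limma adjusted p of these genes was 0.732. Class II genes, which present peptides on specialised immune cells, had 7 of 9 genes higher, with a median of 0.32. H2-Oa was at 1.30 (SE 0.66), or 0.48 with normexp, and was well above background on 5 of 8 arrays and on 1 of 3 OSK arrays. Cd74, the class II invariant chain, was at -0.28 (SE 0.18). Ciita, the class II transactivator, was at -0.29 (SE 0.20), or -0.17 with normexp, and H2-Aa and H2-DMb2 did not rise above background anywhere. The smallest limma adjusted p was 0.822.

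Among 13056 named genes measured on all arrays, the 10 whose levels followed the members' mean most closely over the 8 arrays were Trim56, Idnk, Hdx, Rilpl2, Plek2, Plscr3, H2-T10, 2310022B05Rik, Lhpp and Pphln1. Their Pearson correlations ran from 0.957 to 0.979, and 95 genes were above 0.9. H2-T10, a non-classical class I heavy chain, was at -1.68, -0.43, -0.39 and -0.90 on OSKH 1 to 4, at -1.33, -1.56 and -1.28 on OSK 1 to 3, and at -1.11 on ESC. Trim56, a ubiquitin ligase of antiviral defence, was at 0.05, 1.35, 1.50 and 0.93 on OSKH 1 to 4 and at 0.30, 0.07 and 0.51 on OSK 1 to 3. These likenesses rest on 8 arrays and are descriptions, and the H2-T10 probe may share signal with the heavy chains among the members.

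Leukocytes and fibroblasts express class I genes, so their markers were read as well. Of 14 leukocyte markers on the array, 10 passed the filter, and Ptprc and Spi1 were among those that stayed at background on all arrays. Averaged over the list and centred per gene, leukocyte markers were at 1.07 on OSKH 1, 0.41 on ESC, -0.44, -0.22 and -0.35 on OSKH 2 to 4, and -0.32 to 0.12 on OSK. Among the OSKH arrays, OSKH 1 had the lowest centred mean of the members, at -0.55. OSK 2 was also at -0.55, with leukocyte markers at -0.32. Of 13 fibroblast and feeder markers, 9 passed the filter, and their centred mean was 1.70 on OSKH 4 and 1.56 on ESC against -1.09 to -0.12 on the other 6 arrays. OSKH 2 and 3 were at -0.12 and -0.70. Of 7 endothelial markers 3 passed, and Cdh5, Tie1, Emcn and Erg were not above background on any array. Their centred mean was 0.37 on OSKH 1 and -0.27 on OSKH 4. The 5 mesendoderm markers that passed were at 4.60 on OSKH 4, 1.28 on ESC and -1.52 to -0.16 elsewhere. The part of any of these cell types in the class I levels of OSKH 1, OSKH 4, ESC or the other arrays was not tested.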

How the data were processed

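The arrays were scanned with Agilent Feature Extraction 11.5.1.1, per the submitters' processing notes. The deposited intensity of each spot is background-subtracted and detrended within the array, per the file headers, and is not scaled between arrays. Deposited flags (other values, 0 or 1) mark outliers and spots well above background. The deposited value table, on a log2 scale, differed from the logged processed signal by a constant in each array (100.0% of probes, tolerance 0.01), with column medians of -3.71 to -3.60.

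Control and outlier spots were left out, and log2 signals were averaged per probe and scaled to the 75th percentile of the array (424 to 501 in signal). A probe was kept if at least 3 of 8 arrays had it well above background. Accessions were matched to RefSeq symbols (GRCm38.p6), naming 27650 probes and leaving 28017 unnamed. The probe with the highest mean stood for a gene. The share of probes well above background was 51.4% to 59.0%; the number of arrays limits the precision. Groups were compared with limma 3.58.1 under R 4.3.3 (lmFit, eBayes, Benjamini-Hochberg over all features), which was tested on simulated data. The members and lists were chosen with earlier results of these data known.

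Genes named beside the members were taken from those with the largest and smallest OSKH minus OSK difference of each pathway list, up to 2 each way, fixed genes such as Nlrc5, Irf1, Psmb5, Psmb6, Psmb7 and Psmb10, and the 10 most alike in pattern. Markers and single values outside this rule were chosen after they were seen. Some items are not reported here. Same-numbered OSKH and OSK arrays share a slide column, and their deviations from the group means correlated by 0.465, 0.259 and 0.45. Array number was therefore taken as a pairing in an alternative fit, the replicate block. The main fit, which gave the differences and SEs above, has no pairing. Alternatives were normexp background correction, with the median spot signal since the files used hold no mean, quantile scaling, other filters, the mean of a gene's probes, the deposited table, blocks, and leaving out each iPSC array.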

Additional observations from a re-analysis of the deposited data

Results flagged for a closer look

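In the group of 4 OSKH arrays, 1 array lay far from the other 3 in 4 of the 42 genes examined, by the gap to its neighbour as a share of the group's range. Chance alone flags about 1 group in 20 among unselected genes that vary independently. The 42 genes were chosen with these data in view, and several vary together. Their count can therefore not be set against that rate, and the share over all features is not given here. In each case the array was OSKH 1 and it was the lowest. Tapbp was at 0.95 on OSKH 1 and between 1.46 and 1.54 on the others. Psmb8 was at -1.68 there against 0.45 to 0.88. Hfe was at -3.60 against -3.01 to -2.93, and Erap1 at -4.95 against -3.59 to -3.41. Erap1 was well above background on 3 of the 4 OSKH arrays.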

How the results depend on the processing

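The median OSKH minus OSK difference of the members kept its direction under all 16 alternatives, at 0.33 to 0.55. It moved by less than the spread between arrays (SD 0.40), but that spread is about as large as the median difference of 0.41 itself. The median difference was 0.40 with the replicate block on array number, a fit that leaves out OSKH 4 and ESC, which changed no call. Several of these alternatives could not move the members: both changes of the filter and the deposited table returned nearly the same values, and the replicate block, the slide column block and the fit without OSKH 4 gave identical differences. The difference was negative for Tap1 with slide row as a block (-0.19), and for H2-K1 (-0.0007) and Tap1 (-0.0048) without OSKH 3; without OSKH 1 these genes were at 0.50 and 0.31. The count of called features was 0 except for 47 in OSKH against OSK with slide row as a block, and for 11 in OSKH against ESC and 9 in OSK against ESC with no filter on dim probes; the cause was not tested. Among the lists, genes higher in OSKH numbered 10 of the regulators and 6 of the neighbouring genes with slide row as a block, and 13 of the constitutive proteasome and 5 of the loading genes without OSK 3. Signal over background limits Nlrc5, H2-Q1, Hfe, Erap1 and H2-Oa, while all members were measured on every array.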

Other observations

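Ctss, the lysosomal protease cathepsin S of class II presentation, was at -0.23 on OSKH 1 and -0.80 on ESC, and between -3.35 and -2.67 on the other 6 arrays. Lyz2, lysozyme of myeloid cells, was at -0.82 on OSKH 1 and -1.23 on ESC, and between -4.12 and -3.52 elsewhere. Tyrobp, a myeloid signalling adaptor, was at -1.79 and -2.36 on the same arrays and between -4.49 and -3.49 on the others. OSKH 1 was the highest of the 8 arrays in these 3 genes, while in 7 of the 8 class I genes it was the lowest of the 4 OSKH arrays. Ptprc and Spi1, which define leukocytes, stayed at background throughout. Csf1r and Cd3e, also on the leukocyte list, were at 0.78 and 0.93 on OSKH 1, below ESC at 1.09 and 1.17. The remaining markers of that list that passed the filter were highest on OSKH 1. The genes named here were picked after their values were seen, and no cause was tested.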
